A study of Mus musculus with 4 samples.

Results

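The mitochondrial ribosomal protein genes were examined in embryoid bodies, the aggregates in which embryonic stem cells start to differentiate, made from the mouse line R1. The genes were chosen by symbol alone: every gene whose platform symbol begins with Mrpl or Mrps and a number, read from its brightest probe set. This gave 71 of the 22180 genes with a probe set of their own, 43 Mrpl genes for the large subunit and 28 Mrps genes for the small one. Another 7 symbols of this kind were listed only on probe sets shared with a second gene and were left out. All cells were feeder-depleted, had LIF (the cytokine that keeps them undifferentiated) withdrawn and were cultured for 18 h. The 4 groups were EB medium alone, DMSO, 1.88 µM GSK-J5 and 1.88 µM GSK-J4, with 1 array each. GSK-J4 is an ester prodrug of an inhibitor of the KDM6 histone demethylases, and GSK-J5 is the ester of its weakly active pyridine isomer. The series asks whether KDM6 inhibition brings on a DNA damage response during differentiation.

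Mitochondria keep a small genome of their own, and the messages it encodes, all for subunits of the respiratory chain and the ATP synthase, are translated by a ribosome inside the organelle. Its rRNAs come from the mitochondrial genome, while all of its proteins are encoded in the nucleus, made in the cytosol and imported. Some descend from bacterial ribosomal proteins and others are found only in mitochondria. Factors of the NRF1, GABP and YY1 families are known regulators of nuclear genes for mitochondrial proteins, and embryonic stem cells add to their mitochondrial machinery as they differentiate.

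The members were also compared with other genes by the motifs in their promoters. RefSeq promoter windows (GRCm38.p6, 250 bases before to 50 after the start) were at hand for 62 of the 71 members. The 250 bases before the start are printed for members picked because they hold a match. Of these, 3 were among the lowest in GSK-J4 (Mrpl18, Mrpl36 and Mrps12) and 2 among the highest (Mrpl32 and Mrps18b). The sequences run 5′ to 3′ on the gene's strand, with matches to the searched motifs in capitals. They lie at chr17:12916092-12916341, minus strand; chr13:73330759-73331008, plus strand; chr7:28741822-28742071, minus strand; chr13:14613038-14613287, minus strand; and chr17:35916441-35916690, minus strand.
Mrpl18: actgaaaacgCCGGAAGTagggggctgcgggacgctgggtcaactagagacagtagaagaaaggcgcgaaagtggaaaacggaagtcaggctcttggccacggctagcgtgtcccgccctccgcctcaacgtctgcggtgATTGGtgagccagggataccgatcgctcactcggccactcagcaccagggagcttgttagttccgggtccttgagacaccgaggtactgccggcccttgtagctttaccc
Mrpl36: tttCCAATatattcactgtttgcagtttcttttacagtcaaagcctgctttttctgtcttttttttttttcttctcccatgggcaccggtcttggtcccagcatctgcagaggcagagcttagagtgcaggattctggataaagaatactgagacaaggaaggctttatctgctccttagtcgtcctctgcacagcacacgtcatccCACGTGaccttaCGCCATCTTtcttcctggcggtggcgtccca
Mrps12: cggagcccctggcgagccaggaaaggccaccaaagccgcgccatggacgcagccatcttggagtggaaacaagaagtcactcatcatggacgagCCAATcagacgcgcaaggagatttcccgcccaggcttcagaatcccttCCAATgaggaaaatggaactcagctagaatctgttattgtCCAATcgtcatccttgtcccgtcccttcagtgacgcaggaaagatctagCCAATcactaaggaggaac
Mrpl32: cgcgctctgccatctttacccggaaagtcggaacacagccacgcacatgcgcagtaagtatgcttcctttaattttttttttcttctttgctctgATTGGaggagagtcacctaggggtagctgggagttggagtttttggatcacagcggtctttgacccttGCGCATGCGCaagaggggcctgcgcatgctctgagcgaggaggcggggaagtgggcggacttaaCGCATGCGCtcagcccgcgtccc
Mrps18b: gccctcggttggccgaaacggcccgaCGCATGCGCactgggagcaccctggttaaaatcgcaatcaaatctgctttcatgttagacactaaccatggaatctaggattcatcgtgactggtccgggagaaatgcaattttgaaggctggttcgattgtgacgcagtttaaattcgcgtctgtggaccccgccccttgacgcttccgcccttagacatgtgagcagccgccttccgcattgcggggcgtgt

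In the Mrpl18 window the capitals are an ETS match and, nearer the start, a CCAAT box on the opposite strand. Mrpl36 holds a CCAAT box, an E-box and a YY1 match on the opposite strand that begins 31 bases before the start. Mrps12 holds 4 CCAAT boxes. Mrpl32 holds a CCAAT box on the opposite strand and then NRF1 matches at 2 places, one of which matches on both strands. Mrps18b holds an NRF1 match on the opposite strand, 224 bases before the start. As the printed members were picked for their matches, they do not show which motifs are common at either end. Mrpl2 (E-box and CCAAT) and Mrps18a (YY1 and CCAAT), also among the highest but not printed, hold no NRF1 match.

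Motifs were searched on both strands of the whole windows, and a gene counted when any of its windows held a match. The NRF1 motif GCGCATGCG was found in 7 of 62 members (11.3%), against 1.95% of the 27025 genes with a window and 1.75% of all 32851 windows. The ETS motif CCGGAAGT, the core of the GABP site, was found in 10 members (16.1%), against 4.31% of genes and 3.89% of windows. The YY1 motif AAGATGGCG was found in 8 members (12.9%), against 1.64% and 1.40%. Brighter genes hold these motifs more often as well. Among genes whose mean level reached the 40th percentile on these arrays the shares were 3.88% (NRF1), 8.29% (ETS) and 3.32% (YY1). Genes past this cutoff are not matched to the members in level: their median in GSK-J4 was 9.09, and that of the 71 members 9.92.

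At least 1 of these 3 motifs was present in 24 members (38.7%), against 7.48% of all genes and 14.5% of the brighter ones, and Mrps27 alone held 2 of them. For the other motifs the members' shares were near those of all genes or below them. The E-box CACGTG was in 5 members (8.06%, against 8.09% of genes, 7.15% of windows and 11.8% of the brighter genes), CCAAT in 24 (38.7%, against 41.1%, 37.4% and 42.5%) and TATAAA in 5 (8.06%, against 15.7%, 13.6% and 8.74%). The C/EBP-ATF element TGATGNAAT, bound by ATF4 dimers, was in 0 of 62, against 1.08%, 0.965% and 0.583%. These are matches of letters, and binding was not measured.

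**Figure D1:**
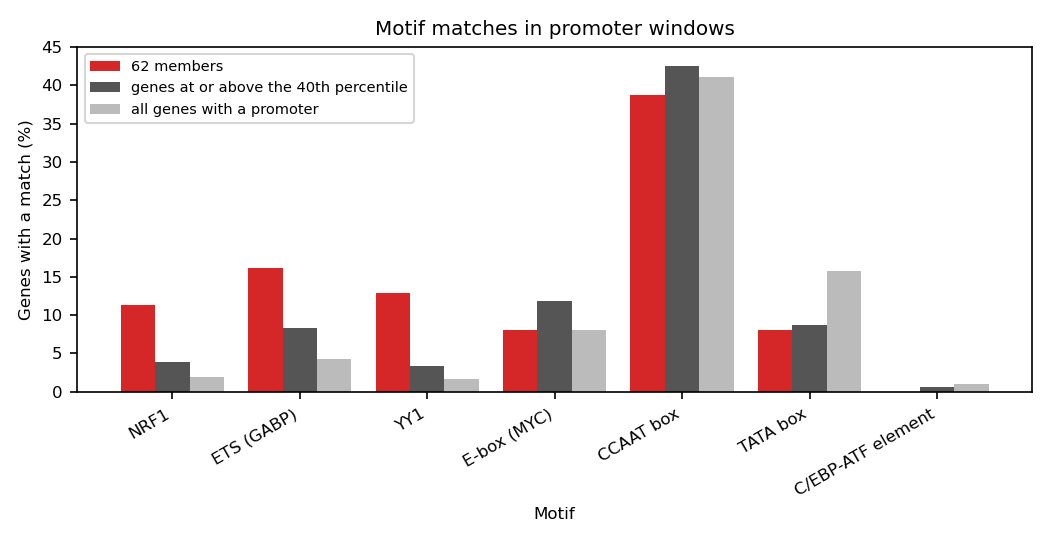
Share of genes, in percent, with a match to each motif in a RefSeq promoter window, for the 62 members with a window, for genes at or above the 40th percentile of level, and for all genes with a window. The members' bars stand at 11.3% (NRF1), 16.1% (ETS) and 12.9% (YY1), above both other bars, and close to them or lower for the other motifs.

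In GSK-J4 most mitochondrial ribosomal protein genes read slightly lower than in the controls, and few read higher. The median log2 difference over the 71 members was −0.09 from GSK-J5, −0.08 from DMSO and −0.09 from medium, beside −0.02, −0.02 and −0.01 over all genes. The 3 comparisons share the GSK-J4 array and are not independent. By number, 52 members (73.2%) read lower than in GSK-J5, 53 (74.6%) lower than in DMSO and 52 (73.2%) lower than in medium, where 53.2%, 52.0% and 51.8% of all genes did. Each treatment has 1 array, so no difference has a replicate check and none carries a p-value.

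Set against all 3 controls at once, 41 of the 71 members (57.7%) lay below every control in GSK-J4, and 9 (12.7%) lay above. Over all genes the shares were 36.3% below and 30.6% above. Among genes at or above the 40th percentile of mean level, where 70 of the 71 members fall, they were 35.5% below and 38.0% above. Distances were small: 19 of the 41 lay below the nearest control by 0.10 or less on the log2 scale, and their median distance was −0.12. At a distance of at least 1.2-fold 8 members (11.3%) lay below all controls, against 6.10% of all genes and 6.02% of the brighter ones. None lay above by that much, against 7.29% and 9.73%. At 1.5-fold, Mrpl18 alone lay below (0.681% of all genes) and 0 members above (1.54%).

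The members differed from all genes less in their lower values than in their higher ones. Against GSK-J5 the lower quartile of the difference was −0.20 for the members and −0.18 for all genes. The upper quartile was 0.00 for the members and 0.14 for all genes. The quartiles were −0.14 and 0.17 for genes at or above the 40th percentile, and −0.11 and 0.17 at or above the 60th. From these brighter genes the members thus stood apart at the lower end too. The differences from the mean of the controls had an SD of 0.180 over the members and 0.271 over all genes, so the members also lay closer together. This was not particular to them. Against GSK-J5 the SD was 0.183 for the members and 0.176 for cytosolic ribosomal protein genes. It was wider, 0.256, for nuclear-encoded respiratory chain subunits.

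**Figure D2:**
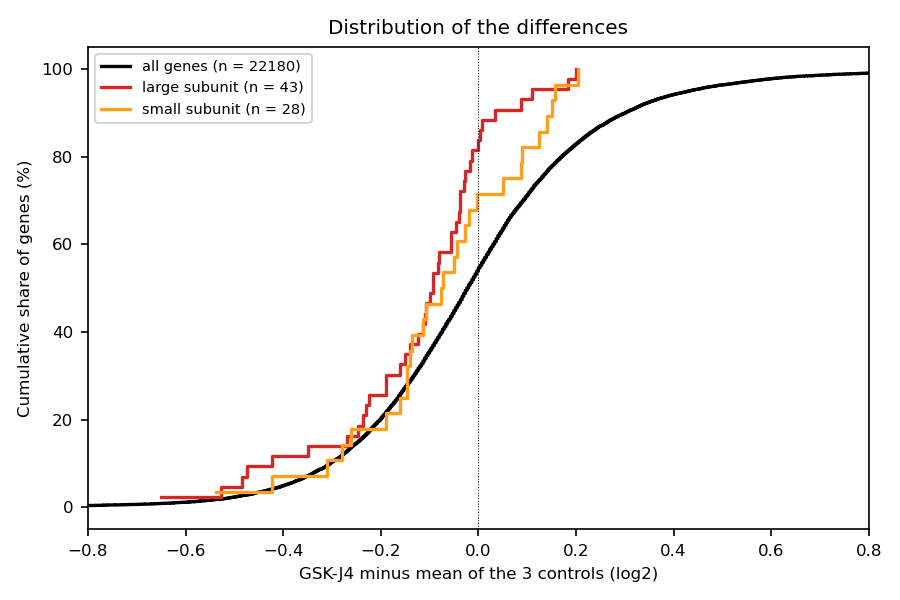
Cumulative share of genes, in percent, against the log2 difference of GSK-J4 from the mean of the 3 controls, for all 22180 genes and for the members of each subunit. At their lower ends the curves lie near each other, and above 0 both subunits run ahead of all genes and end at 0.20.

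The same counts were made with each control array in the place of GSK-J4, which is then among the 3 others. The medium array lay below the 3 others in 5 members (7.04%, all genes 18.0%) and above them in 12 (16.9%, all genes 21.6%). DMSO lay below in 12 (16.9%, all genes 23.4%) and above in 24 (33.8%, all genes 21.7%). GSK-J5 lay below in 9 (12.7%, all genes 18.1%) and above in 23 (32.4%, all genes 22.0%). These shares are tied to those of GSK-J4, since each gene has 1 lowest and 1 highest array unless values are equal. They are therefore not a scale of differences between the controls alone. At 1.2-fold, in either direction, 0 members stood apart in medium (all genes 2.58%), 1 in DMSO (Mrpl27; all genes 2.45%) and 0 in GSK-J5 (all genes 2.50%).

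**Figure D3:**
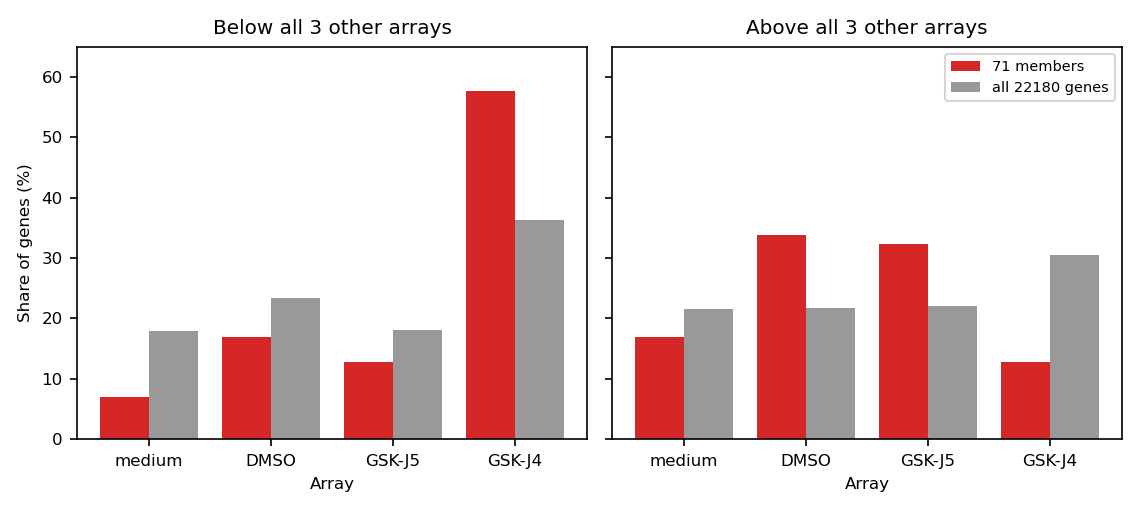
Share of genes, in percent, for which each array lay below (left) or above (right) all 3 others, for the 71 members and for all 22180 genes. GSK-J4 has the tallest bar on the left, 57.7% of members against 36.3% of genes, and the shortest members' bar on the right, 12.7% against 30.6%.

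The control compound at the matched dose showed no such shift of the median. GSK-J5 minus DMSO had a median of −0.01 over the members (quartiles −0.07 and 0.06), GSK-J5 minus medium 0.01 and DMSO minus medium 0.01. The 3 controls lay within 0.20 of each other for 62 members, and their median range was 0.11, against 0.16 over all genes.

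From GSK-J5 to GSK-J4 the median differed by −0.10 for the 43 large subunit genes and −0.09 for the 28 small subunit genes. Against DMSO the medians were −0.09 (large) and −0.05 (small), and against medium −0.09 and −0.075. The large median minus the small median was thus −0.010, −0.040 and −0.015, no more than the 0.040 that DMSO minus medium gave between 2 controls. Its sign turned to positive against GSK-J5 under repeated quantile normalization and loess, and against medium with the median over probe sets. Its size passed 0.040 against DMSO and medium under a filter at the 60th percentile, −0.055 and −0.060. Below all controls lay 26 large subunit genes (60.5%) and 15 small ones (53.6%). Above all controls lay 2 of the 43 large and 7 of the 28 small subunit genes, a difference that was not tested. Of all genes, 36.3% lay below and 30.6% above. On the upper side the small subunit was thus nearer to all genes than the large one.

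**Figure D4:**
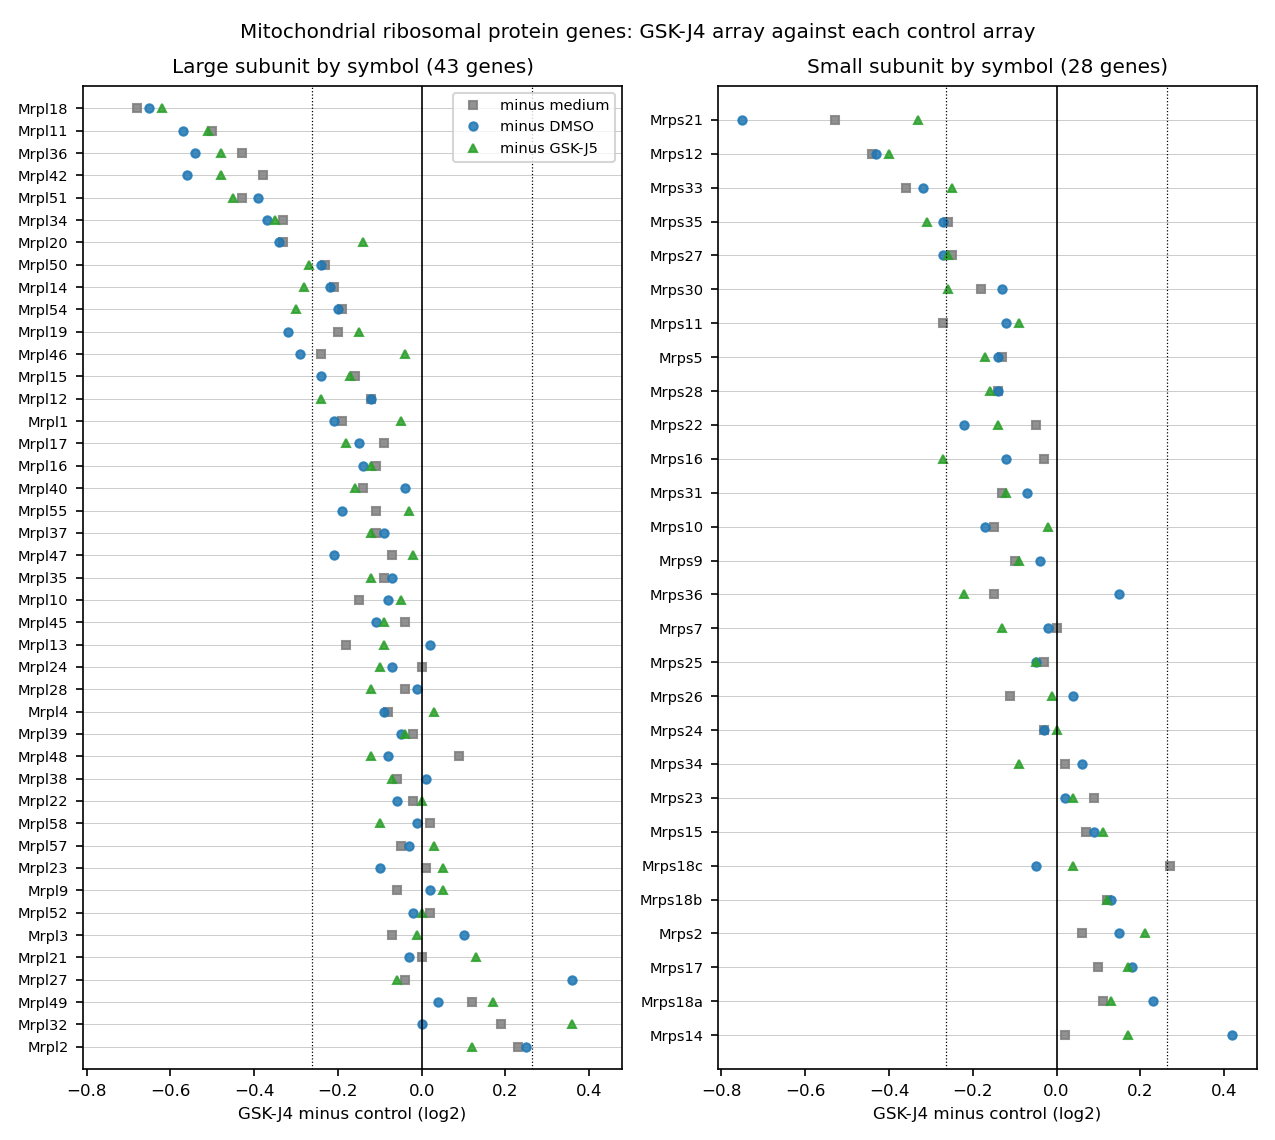
Log2 difference of the GSK-J4 array from medium (squares), DMSO (circles) and GSK-J5 (triangles) for each of the 43 large and 28 small subunit genes, ordered by the difference from the mean of the controls; dotted lines mark 1.2-fold. Mrpl18 stands lowest among the large subunit genes and Mrps21 among the small ones, and in both panels most symbols lie left of 0.

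Among the large subunit genes of bacterial descent, Mrpl18 stood farthest from the controls. It encodes a protein of the central protuberance, and it read 10.86 in medium, 10.83 in DMSO, 10.80 in GSK-J5 and 10.18 in GSK-J4. The controls lay within 0.06 of each other and GSK-J4 was 1.54-fold below the nearest. Mrpl11, which helps form the base of the stalk where translation factors bind, read 10.62, 10.69, 10.63 and 10.12 in the same order. Mrpl36, a small zinc-binding protein, read 9.31, 9.42, 9.36 and 8.88. For both, GSK-J4 lay apart from 3 controls that differed little, and a second, dimmer probe set of Mrpl36 also read lowest in GSK-J4 (7.44, 7.17, 7.61 and 6.92). Mrpl34, a bacterial-type protein, read 12.39, 12.43, 12.41 and 12.06, again with GSK-J4 as the single low array.

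Of the large subunit genes found only in mitochondria, Mrpl42 and Mrpl51 were the lowest. Mrpl42 read 10.71 in medium, 10.89 in DMSO, 10.81 in GSK-J5 and 10.33 in GSK-J4. Mrpl51 read 9.82, 9.78, 9.84 and 9.39. Both were more than 1.2-fold below every control.

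In the small subunit Mrps21 and Mrps12, both of bacterial descent, were the lowest. Mrps12 belongs to the decoding centre, where codon and anticodon are matched. It read 9.19 in medium, 9.18 in DMSO, 9.15 in GSK-J5 and 8.75 in GSK-J4, with the controls within 0.04. Mrps21 read 7.76, 7.98, 7.56 and 7.23. Its controls were 0.42 apart, more than the 0.33 that separated GSK-J4 from the nearest of them, so its place near the bottom is less firm than that of Mrps12. The mitochondria-specific Mrps33 (9.01 in GSK-J4, 9.26 to 9.37 in the controls), Mrps35 (9.01, controls 9.27 to 9.32) and Mrps27, a pentatricopeptide repeat protein (10.74, controls 10.99 to 11.01), lay just short of 1.2-fold.

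**Figure D5:**
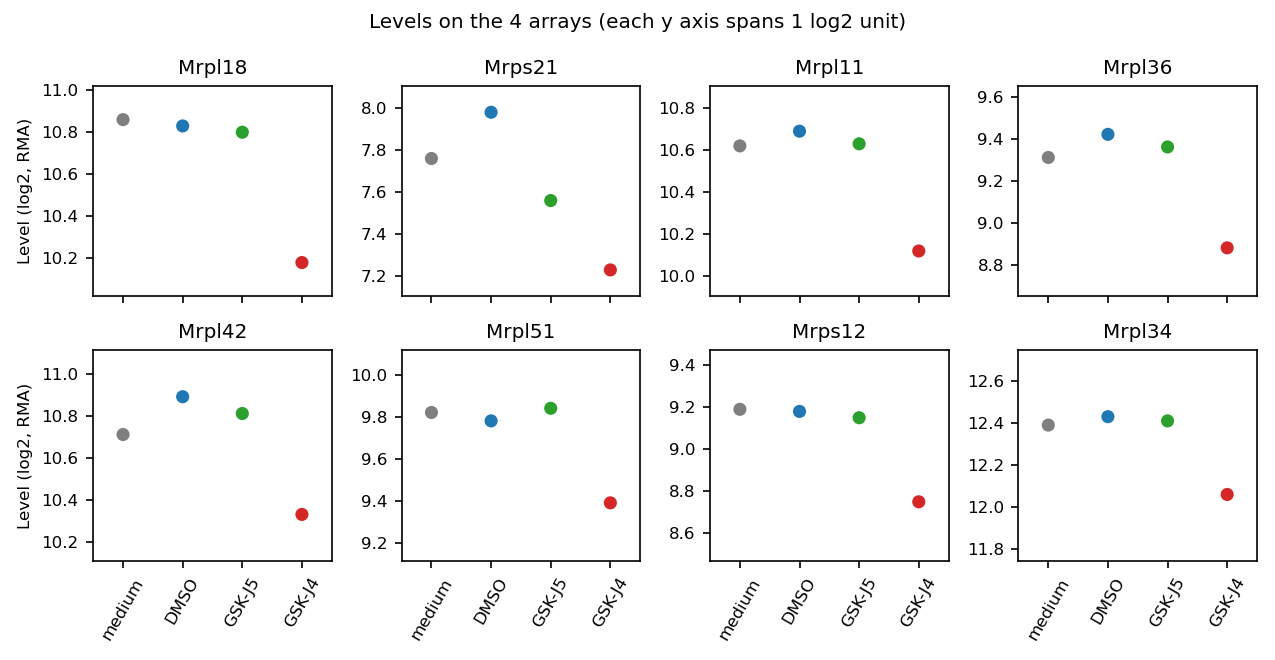
Log2 level on each of the 4 arrays for the 8 members that lay at least 1.2-fold below all controls, 1 point per array, with every y axis spanning 1 log2 unit. In each panel GSK-J4 is the lowest point, and the controls are close together except for Mrps21.

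The highest members lay nearer to their controls than the lowest did. Mrpl2, whose bacterial counterpart lies at the peptidyl transferase centre, read 9.86 in medium, 9.84 in DMSO, 9.97 in GSK-J5 and 10.09 in GSK-J4, a distance of 0.12 from the nearest control. Mrpl32, whose precursor is matured by the m-AAA protease, read 8.92, 9.11, 8.75 and 9.11, level with DMSO. Mrpl49, found only in mitochondria, read 11.45, 11.53, 11.40 and 11.57, and was 0.04 above the controls. Mrpl27 (6.89 in GSK-J4, controls 6.53 to 6.95), Mrpl21 (9.22, controls 9.09 to 9.25) and Mrpl3 (10.67, controls 10.57 to 10.74) lay inside the control range. Mrpl27 is dim, and its controls were 0.42 apart.

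Among small subunit genes of bacterial descent Mrps14 read 7.65 in medium, 7.25 in DMSO, 7.50 in GSK-J5 and 7.67 in GSK-J4; its controls were 0.40 apart, and GSK-J4 lay 0.02 above the highest. Mrps17 (8.89 in GSK-J4, controls 8.71 to 8.79), Mrps2 (9.62, controls 9.41 to 9.56) and Mrps15 (11.43, controls 11.32 to 11.36) lay above all controls by 0.10, 0.06 and 0.07. The control ranges were 0.08, 0.15 and 0.04.

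The 3 Mrps18 paralogues share an ancestor but occupy different places, and their symbols mislead for one of them: the product of Mrps18a sits in the large subunit, and those of Mrps18b and Mrps18c in the small. Mrps18a read 10.47 in medium, 10.35 in DMSO, 10.45 in GSK-J5 and 10.58 in GSK-J4. Mrps18b read 11.70, 11.69, 11.70 and 11.82. GSK-J4 was thus the highest array for both, by 0.11 and 0.12, and a second probe set of Mrps18b was 0.02 above its controls. Mrps18c read 8.11, 8.43, 8.34 and 8.38, inside its controls.

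Mrps30, whose product also sits in the large subunit, read 10.21, 10.16, 10.29 and 10.03, below all controls by 0.13. The label does not hold for Mrps36, whose product is a subunit of the 2-oxoglutarate dehydrogenase complex. It was the only member under the 40th percentile of gene means (6.585) and read 5.82, 5.52, 5.89 and 5.67, inside its controls. Grouped by structure, without Mrps36, the large median minus the small one was −0.010 with GSK-J5 as the control and −0.040 with either DMSO or medium.

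Genes of bacterial descent and mitochondria-specific genes were compared within each subunit, and their differences were not tested. In the large subunit 17 of 28 bacterial-type genes and 10 of 17 mitochondria-specific genes lay below all controls, with medians against GSK-J5 of −0.095 and −0.10. In the small subunit it was 7 of 14 and 7 of 11, with medians of −0.055 and −0.12 against GSK-J5, −0.045 and −0.07 against DMSO and −0.03 and −0.11 against medium. Over all genes 36.3% lay below. The grouping by descent was drawn from general knowledge of ribosome structures and was not checked. The place of Mrps28 (9.02 in GSK-J4, controls 9.16 to 9.18), counted as mitochondria-specific, is uncertain, and the small subunit counts and medians depend on it. Of the stalk genes, Mrpl11 lay 0.50 below the nearest control, while Mrpl12 read 10.74, 10.74, 10.86 and 10.62 and Mrpl10 12.07, 12.00, 11.97 and 11.92, below by 0.12 and 0.05. Second probe sets of Mrpl10 and Mrpl12 were below their controls by 0.15 and 0.20. In all, 9 members had a second probe set, and for all 9 it lay on the same side of the mean of the controls as the brighter one. The immediate neighbours Mrpl46 and Mrps11 differed from the mean of the controls by −0.19 and −0.16.

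The difference from the mean of the controls was also compared between members with and without a match, and this was not tested. Its median was −0.04 for the 24 members with an NRF1, ETS or YY1 match and −0.10 for the 38 without. The median difference from the mean of the controls was −0.03 for the 7 members with an NRF1 match and −0.10 for the 55 without, −0.03 and −0.09 for ETS, and −0.13 and −0.07 for YY1. Mrpl18 and Mrpl51, among the lowest, hold an ETS match. So do Mrps18c and Mrpl27, each 0.09 above the mean of its controls but inside their range.

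Genes that work with the mitochondrial ribosome were spread on both sides of their controls. The counts for these lists stand beside 36.3% of all genes below all controls and 30.6% above. Of 3 ribosomal proteins with other symbols, Gadd45gip1 of the large subunit read 9.98 in GSK-J4 against 10.13 to 10.23, while Ptcd3 (11.05, controls 11.04 to 11.20) and Dap3 (10.57, controls 10.57 to 10.60) lay inside or level with the control range. Among 13 translation factors 3 lay below and 7 above all controls, with a median of 0.06 against GSK-J5. The elongation factor Tufm read 12.31 against 12.50 to 12.52 and Guf1, a ribosomal GTPase, 10.04 against 10.07 to 10.21. Mtfmt, which formylates the initiator tRNA, read 9.82 against 9.45 to 9.72, and the initiation factor Mtif2 read 9.55 against 9.28 to 9.32.

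Among 27 genes for ribosome assembly and rRNA modification 9 lay below and 10 above, with a median of 0.02 against GSK-J5. The small-subunit assembly factor Rbfa (10.39, controls 10.66 to 10.72) and the GTPase Noa1 (10.40, controls 10.67 to 10.69) were the only 2 past 1.2-fold, both lower. That is 7.41% of the list, and over all genes 6.10% lay below by that much. Trub2, a pseudouridine synthase, read 10.83 against 10.39 to 10.67 and Nsun4, an rRNA methyltransferase, 7.83 against 7.32 to 7.68.

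Genes for mitochondrial transcription and message stability had 5 of 12 below and 3 above (median −0.04). The lowest were the RNA-degrading Pnpt1 (11.46, controls 11.58 to 11.74) and the elongation factor Tefm (9.40, controls 9.44 to 9.58), and the highest Mterf2 (7.25, controls 6.94 to 7.05) and Fastk (11.59, controls 11.34 to 11.48). Mitochondrial chaperones and proteases had 6 of 13 below and 5 above (median −0.02), from Hspd1 (12.90, controls 13.03 to 13.05) and Hspe1 (10.66, controls 10.73 to 10.77) to Hspa9 (13.09, controls 12.88 to 12.91) and Dnaja3 (11.47, controls 11.17 to 11.24). Of 11 biogenesis regulators 4 lay below and 2 above, with a median of −0.03 when GSK-J5 was the control. With DMSO in its place the median was −0.12 (members −0.08), and with medium −0.08 (members −0.09). By these 2 controls the list thus read about as low as the members, which was not tested. Myc read 9.75 against 10.45 to 10.56 and Esrra 8.68 against 8.82 to 9.03, while Esrrb (8.97, controls 8.73 to 8.86) and Gabpb1 (8.77, controls 8.66 to 8.74) were the highest. Nrf1 itself, at 9.78, lay inside its controls (9.74 to 9.81).

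Of the gene groups most like the members, the cytosolic ribosomal protein genes did not read lower: 18 of 63 (28.6%) lay below all controls and 26 (41.3%) above, with a median against GSK-J5 of −0.01. Nuclear-encoded respiratory chain subunits were nearer to the members, with 40 of 81 (49.4%) below, 13 (16.0%) above and a median of −0.10. Of 10 mitochondrially encoded genes, whose messages this ribosome translates, 9 lay below and 0 above, with a median of −0.235. Over all genes 36.3% lay below and 30.6% above. These differences between groups were not tested.

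Markers of cell types and control genes also differed between the arrays. Their counts stand beside 36.3% of all genes below all controls and 30.6% above. By at least 1.2-fold these shares were 6.10% and 7.29%. Of 10 embryonic stem cell markers 9 reached the 40th percentile, with Nanog at 13.05 in GSK-J4 (controls 13.11 to 13.20) and Sox2 at 13.02 (controls 12.93 to 13.02). Dppa5a was dim (6.29, controls 6.31 to 6.66). Tdgf1 lay farthest below its controls (12.33, controls 12.69 to 12.71) and was the only marker past 1.2-fold, while Esrrb, given above, was the highest. Of these 10 markers 6 lay below and 1 above all controls, and their median against GSK-J5, −0.07, was near that of the members. Of 14 feeder fibroblast markers 7 lay below and 0 above, and 7 of the 14 were under the 40th percentile. Their mean log2 level was 6.48 in GSK-J4 and 6.62 to 6.70 in the controls. By at least 1.2-fold 3 lay below (21.4%, all genes 6.10%). These were Dcn (4.78 in GSK-J4, controls 5.29 to 5.59), Thbs1 (7.06, controls 7.46 to 7.54) and Acta2 (7.56, controls 7.85 to 8.03). The dim Lum read 4.34 (controls 4.56 to 4.60), and the brighter Mmp2 8.87, inside its controls (8.77 to 9.02). Of 8 blood and endothelial markers 1 lay below and 4 above, with a mean level of 7.65 against 7.31 to 7.36. The same 4 lay above by at least 1.2-fold: Laptm5 read 8.45 in GSK-J4 against 6.92 to 7.16, Tek 7.62 against 6.91 to 7.23, Pecam1 11.17 against 10.72 to 10.80 and Cd68 10.91 against 10.50 to 10.61. Cdh5 lay below (6.29, controls 6.64 to 6.69), and Ptprc, the general marker of blood cells, read 4.49, inside its controls. Of 11 housekeeping genes 7 lay below and 4 above (median −0.04). Pgk1 (13.08 in GSK-J4, controls 13.28 to 13.41) and Hprt (10.91, controls 11.00 to 11.19) were the lowest. B2m (10.91, controls 10.47 to 10.67) and Polr2a (11.88, controls 11.40 to 11.49) were the highest, and Polr2a alone was past 1.2-fold. The part of these markers and control genes in the members' values was not tested. In whole embryoid bodies fewer cells of a type and less RNA per cell cannot be told apart.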

How the data were processed

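Total RNA of 4 samples was hybridised to Affymetrix arrays, 1 array per treatment, and samples were grouped by the treatment label. The authors deposited log2 expression values; the submitters' processing notes name RMA and Expression Console (version 1.2.1.20, Affymetrix). Quantile normalization, a step of RMA, gives all arrays 1 distribution of intensities, so a shift common to all genes is not visible. The log base is inferred from the range, 2.20 to 14.48. The number of arrays limits the precision, and detection above background was not examined.

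Of 41345 probe sets, 23521 had a single gene symbol in the platform annotation, 1814 had several and 16010 were not listed there. The brightest probe set on average stood for each of 22180 genes, with no filter on low values. All 71 members matched RefSeq (GRCm38.p6) by gene ID with the same symbol. A gene lay below (or above) the controls when GSK-J4 was under the lowest (over the highest) of the 3; the distance to the nearest is on the log2 scale, with rules of any amount, 1.2-fold and 1.5-fold.

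The members, lists, motifs and subunit groups were chosen with earlier results of these data known. Named are the 6 lowest and 6 highest members of each subunit by GSK-J4 minus the mean of the controls. So are any other at least 1.2-fold outside the controls and the 3 with the widest control range. Mrps30, Mrps36, the Mrps18 paralogues and the stalk genes are named too. From each further list of mitochondrial or housekeeping genes the 2 lowest and 2 highest are named. Cell type markers and other genes were named after their values were seen. Alternatives were 3 rescalings, the median over probe sets, filters at the 40th and 60th percentiles, omission of pseudogenes, grouping by structure and leaving out each control. Work was done in Python 3.11.15.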

Additional observations from a re-analysis of the deposited data

How the results depend on the processing

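The median over the members stayed below 0 against each control under all 8 alternatives to the scaling, the probe set, the filter and the membership, from −0.135 to −0.070. It moved by more than the 0.010 that control arrays differed by under quantile normalization, to −0.135 (GSK-J5), −0.125 (DMSO) and −0.115 (medium), and under loess, to −0.126 (GSK-J5) and −0.107 (DMSO). The large median minus the small one changed sign against GSK-J5 under quantile normalization (0.017) and loess (0.017), and against medium with the median over probe sets (0.015); a filter at the 60th percentile made it −0.060 against medium. Against DMSO it was −0.055 under that filter and −0.055 with the median over probe sets, both beyond the 0.040 between controls. The causes were not tested. Over 11 alternatives, leaving out each control among them, 40 to 49 members lay below all controls and 7 to 12 above. The shares over all genes in the same settings ran from 34.9% to 42.9% below and from 27.2% to 41.5% above. By 1.2-fold 7 to 10 members lay below (all genes 5.67% to 9.54%) and 0 above (6.09% to 9.73%). The count of 49 came under quantile normalization, where 40.7% of all genes lay below. The filter at the 60th percentile kept 65 members, and leaving out a control makes both shares larger. No member symbol was a pseudogene, so that alternative changed nothing. No paired analysis was possible because each treatment has 1 array. Of the 41 members below all controls, 21 lay below by more than their own control range and 20 did not, and of the 9 above, 3 did and 6 did not. With 1 array per treatment these distances cannot be told apart from differences between cultures. The split by control range was not counted over all genes, whose controls lay farther apart (median range 0.16, members 0.11).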
